A study of Mus musculus with 67 samples.

Results

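The cells described here are the single cultured mouse aortic cells in which Mki67 or Top2a had a deposited value of at least 10. They were selected on those 2 genes, whose products mark dividing cells, and numbered 26 of the 67 cells measured, 10 of 45 at passage 2 and 16 of 22 at passage 1. All were labelled as vascular smooth muscle cells, which contract the vessel wall. The donors were C57Bl6 males, adults 3 to 4 months old, and the cells came from their descending aortas. Passage 2 cells came from trypsinized and subcultured passage 1 cells, and passage 1 cells had stood undisturbed for 5 days before that. Both passages were grown in DMEM, a standard culture medium, with 10% fetal bovine serum and 1% antibiotic. Each cell was captured on a microfluidic C1 system and sequenced as its own library. Which mouse or dish gave a cell is not in the labels. Each passage was therefore treated as a single sample, with no test, p-value or standard error, and an SD below describes cells of 1 passage. The cell names of the passages carry different prefixes, so passage and the set of libraries cannot be told apart.

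A dividing cell copies its DNA in S phase and parts its chromosomes in mitosis, and it makes the transcripts for these steps in waves. Genes of S phase are known to be driven mainly by E2F factors, and those of G2 and M phase by complexes that bind CCAAT boxes and the cell cycle homology region. Smooth muscle cells taken into culture are known to lose contractile proteins, to divide and to secrete matrix. Their contractile genes are driven by serum response factor (SRF) and its cofactor myocardin.

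The deposited values are normalised gene counts, scaled by 1 size factor per cell, so they compare cells but not genes of different length. Ratios are log2 of the mean over passage 2 cells plus 1, minus the same at passage 1, and a positive ratio means higher at passage 2. A gene was called higher or lower when the ratio was at least 1 or at most -1 and at least 75% of the 160 pairs of a passage 2 and a passage 1 cell went the same way. This is a rule of size, not a test. Of the 8527 genes kept, 93 (1.09%) were called higher and 871 (10.2%) lower, and the median ratio of all genes was -0.29, with 3493 above 0.

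Mki67, a protein that coats mitotic chromosomes, and Top2a, the topoisomerase that untangles them, chose the cells, so their values are given only as a description. Mki67 had lowest, median and highest values of 0, 70.1 and 556 in passage 2 cells and 0, 295 and 1085 in passage 1 cells. Top2a had 0, 12.3 and 424 in passage 2 cells and 0, 324 and 1794 in passage 1 cells. Both genes reached 10 in 3 passage 2 cells and 12 passage 1 cells. Mki67 alone did so in 4 passage 2 cells and 3 passage 1 cells, and Top2a alone in 3 passage 2 cells and 1 passage 1 cell. The selected share was 22.2% at passage 2 (exact Clopper-Pearson 95% interval 11.2 to 37.1, which covers the counting of cells only) and 72.7% at passage 1 (49.8 to 89.3). Just inside the threshold stood passage 2 cells 32, 30 and 45, with Top2a at 10.6, 14.1 and 17.9 and Mki67 at 0. Just outside it stood passage 1 cells 17, 7 and 11, with Top2a at 6.63, 6.39 and 3.51. The nearest at passage 2 was cell 7, with Top2a at 3.25.

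**Figure D1:**
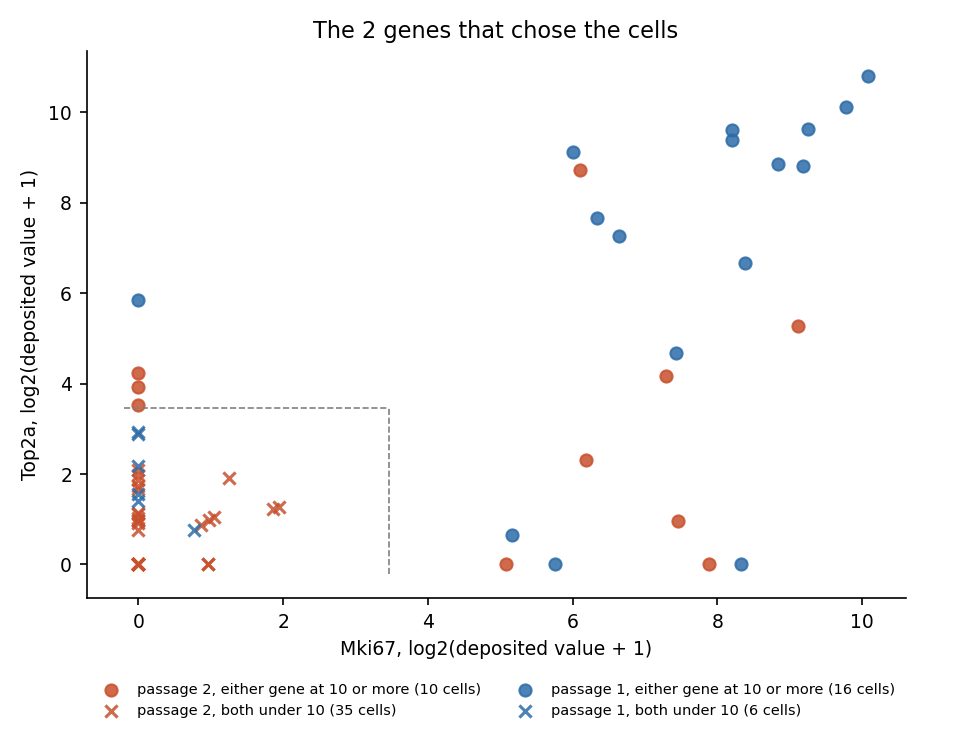
Top2a against Mki67, both as log2 of the deposited value plus 1, in all 67 cells; circles are the cells with either gene at 10 or more, crosses the other cells, and dashed lines the threshold. The 3 passage 2 circles on the left edge, cells 32, 30 and 45, have Top2a at 10.6, 14.1 and 17.9 and no Mki67.

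The other cell cycle genes did not bear out the label of cycling cells for all of the passage 2 cells. Mki67 and Top2a were left out of the lists of 40 S phase genes and 50 G2 and M phase genes, and each cell was scored by how many of these 90 genes reached a value of 10. The count had a lowest, median and highest of 7, 17 and 61 in the selected passage 2 cells and 19, 71 and 78 in the selected passage 1 cells. In the cells with both genes under 10 it was 4, 8 and 22 at passage 2 and 13, 33.5 and 48 at passage 1. The passage 2 cells chosen on Top2a alone, cells 30, 32 and 45, had counts of 7, 11 and 9, inside the range of the passage 2 cells that were not chosen. Cells 13, 15 and 20, chosen on Mki67 alone, had 16, 15 and 18, inside that range too. Only 4 of the 10 selected passage 2 cells had at least 25 of these genes at 10, against 15 of the 16 at passage 1. The exception at passage 1 was cell 9, with 19. Passage 2 cells 13 and 15 had few genes with a read, 4163 and 4754, and the part of detection in their counts was not tested. Each had 12 G2 and M phase genes at 10, against at most 11 in the passage 2 cells that were not chosen. Whether a cell with a low count was dividing was not tested. The selected cells are therefore called by their rule below and not cycling cells.

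The 4 passage 2 cells with many cell cycle genes differed in which genes they were. Cell 8 had 28 S phase genes and 18 G2 and M phase genes at 10. Cell 9 had 19 and 42, cell 28 had 15 and 24, and cell 14 had 7 and 29. Cell 8 was thus the one passage 2 cell with more S phase than G2 and M phase genes among these 4. It also held 8 of 10 endothelial markers at 10, as passage 1 cells 12, 13 and 16 held 7, 9 and 5, and every other selected cell held at most 1. These 4 are called endothelial marker cells below. Of the cells with both genes under 10, passage 1 cells 11 and 14 held 6 and 4 endothelial markers at 10 and passage 2 cell 11 held 7. They stayed in all ratios given below for the cells with both genes under 10. The selected passage 2 cells 13, 15 and 20 had 16, 15 and 18 cell cycle genes at 10. Among cells with both genes under 10, passage 1 cells 17, 5 and 11 still had 29, 25 and 20 S phase genes at 10, and no selected passage 2 cell other than cell 8 had more than 19.

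**Figure D2:**
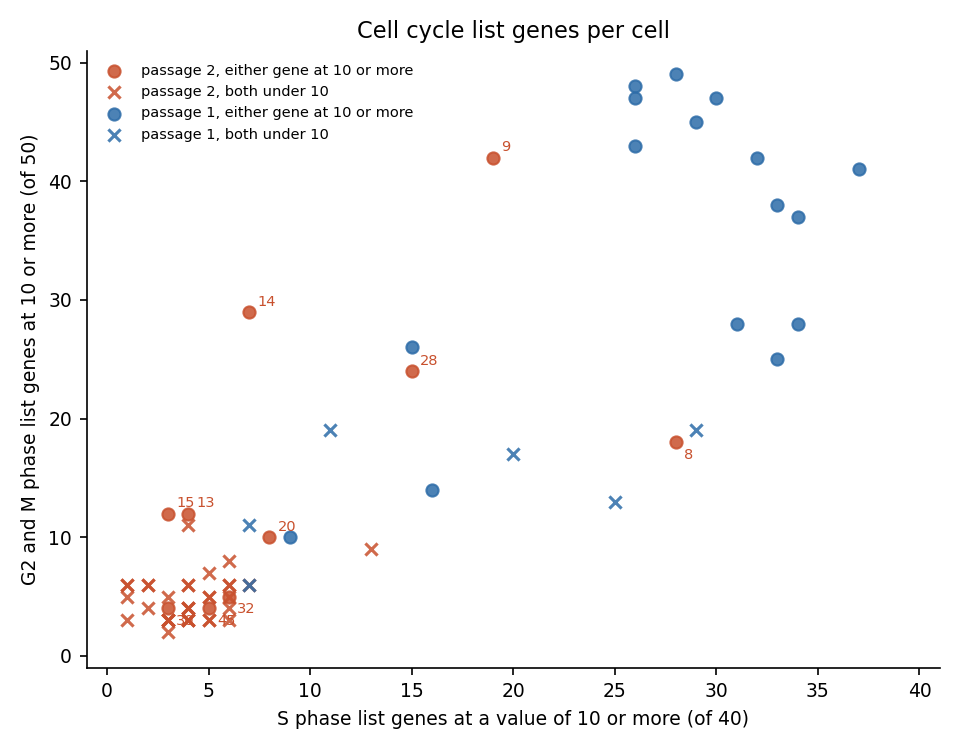
Number of S phase list genes (x axis, of 40) and of G2 and M phase list genes (y axis, of 50) at a value of 10 or more in each of the 67 cells; circles are cells with Mki67 or Top2a at 10 or more, crosses the others, and numbers name the selected passage 2 cells. Of the selected passage 2 cells, cells 9, 14, 28 and 8 lie away from the passage 2 crosses, while cells 30, 32 and 45 lie among them.

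Reads recovered per selected cell had a lowest, median and highest of 640770, 867359.5 and 1509589 in passage 2 cells and 817021, 1234183.5 and 1561129 in passage 1 cells. Genes with a read numbered 4163 to 8731 (median 7263) at passage 2 and 4017 to 10733 (median 8583) at passage 1, with passage 2 cells 13 and 15 and passage 1 cell 21 lowest. Depth and genes detected thus moved with passage. With every cell thinned to 500000 reads, 93 genes were called higher and 788 lower. At least 3 of 10 smooth muscle markers reached 10 in 10 of 10 passage 2 cells and 15 of 16 passage 1 cells, and their summed value had a lowest, median and highest of 1370.2, 5276 and 15308 in passage 2 cells and 205, 1551 and 8656 in passage 1 cells. The macrophage markers Ptprc, Adgre1, Fcgr1 and C1qa and the lymphocyte markers Cd3e and Ms4a1 were at 0 in all 26 cells. Of 10 macrophage markers, however, 2 reached 10 in at least 1 cell at each passage, with highest summed values of 51.1 at passage 2 and 147 at passage 1. Of 8 lymphocyte markers, 1 did so at passage 2 and 2 at passage 1, with highest summed values of 145 and 39.3. No selected cell held 3 markers of either list at 10.

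Genes of S phase and DNA replication were mostly lower in the selected passage 2 cells. Of 39 measured list genes, 36 had a ratio below 0 and 28 (71.8%) were called lower, against 10.2% of all genes, and none was called higher. The list median was -2.40, and -3.63 to -2.25 with each cell left out in turn, the lowest without passage 2 cell 8. It was -2.91 over 30 genes in the cells with both genes under 10, which share no cell with the selected ones. Genes entered each comparison separately, so the medians of a list in the 2 comparisons can rest on different genes. The rule chose cells on genes of the same process, so these values are a description.

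Fen1, the flap endonuclease that trims Okazaki fragments, stood at the low end of the list. It had lowest, median and highest values of 0, 0 and 4.00 in passage 2 cells and 0, 39.9 and 719 in passage 1 cells, and its ratio was -6.46. Only passage 2 cell 8 had any read of it, at 4.00, while 12 of 16 passage 1 cells reached 10. Mcm7, a subunit of the replicative helicase, had 0, 2.06 and 66.9 in passage 2 cells and 9.37, 145 and 555 in passage 1 cells, with a ratio of -3.15 and the passage 2 cell higher in 9.38% of pairs. The passage 2 cells at or above 10 were cells 9, 8 and 28, at 36.2, 64.1 and 66.9, all among the cells with many cell cycle genes. The histone chaperone gene Asf1b had 0, 0 and 28.3 in passage 2 cells and 0, 131 and 319.8 in passage 1 cells, with a ratio of -4.70. Passage 2 cell 14 was the only one at passage 2 to reach 10.

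The 2 subunits of ribonucleotide reductase, which makes deoxynucleotides, differed in size of ratio. Rrm2, the S phase subunit, had 0, 3.30 and 666 in passage 2 cells and 5.82, 452 and 1650.5 in passage 1 cells, with a ratio of -1.52, and was called lower. It reached 10 in 4 of 10 passage 2 cells, at 666 in cell 8, 582 in cell 9, 374 in cell 13 and 179 in cell 28. Rrm1, the large subunit and the list gene with the highest mean, had 0, 237 and 646 in passage 2 cells and 5.82, 520.5 and 1225 in passage 1 cells, with a ratio of -0.86, and was not called. It reached 10 in 8 of 10 passage 2 cells and 15 of 16 passage 1 cells, so the groups overlapped over most of their range. Chaf1a, a subunit of the chromatin assembly factor, had the highest ratio of the list, 0.19, and -0.93 without passage 2 cell 8.

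G2 and M phase genes were lower in part, and none was called higher. Of 50 genes, 24 (48.0%) were called lower, against 10.2% of all genes, and the other 26 did not pass the rule, although 45 of the 50 had a ratio below 0. The list median was -1.52, -2.01 without passage 2 cell 9 and -1.22 without passage 1 cell 18. In the cells with both genes under 10 it was -2.90 over 27 genes. Here too the rule chose cells on genes of the same process, so these values are a description. The lowest ratio was that of Kif20b, a kinesin of the late mitotic spindle, at -6.07, and the highest that of Cenpa, the histone H3 variant that marks centromeres, at 2.92.

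Kif20b had lowest, median and highest values of 0, 0 and 27.6 in passage 2 cells and 0, 206 and 693 in passage 1 cells. It was read in passage 2 cell 9 alone, at 27.6, and reached 10 in 13 of 16 passage 1 cells. Ncapg2, a condensin subunit, had 0, 0 and 79.1 in passage 2 cells and 0, 85.3 and 682 in passage 1 cells, with a ratio of -4.24. The kinase gene Plk4, which starts the duplication of centrioles and was outside the lists, had 0, 0.431 and 4.00 in passage 2 cells and 2.17, 65.2 and 574 in passage 1 cells. The passage 2 cell was the higher one in 1.25% of pairs, and no passage 2 cell reached 5, including the 4 with many cell cycle genes.

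Cenpa went the other way. It had lowest, median and highest values of 0, 91.7 and 544 in passage 2 cells and 0, 6.02 and 118 in passage 1 cells, a ratio of 2.92 and the passage 2 cell higher in 73.1% of pairs, just under the 75% needed for a call. The passage 2 cells at or above 10 were cells 13, 9, 14, 20, 15, 45 and 28, at 544, 411, 398, 136, 107, 76.7 and 43.3. Cells 13, 15 and 20 were among these, although only 12, 12 and 10 of the 50 genes of the list reached 10 in them. The highest passage 1 value was 118, in cell 1. Its ratio in the cells with both genes under 10 was -0.06.

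Ccna2, the cyclin of S and G2 phase, had 0, 4.21 and 1076 in passage 2 cells and 13.6, 82.5 and 379.6 in passage 1 cells, with a ratio of 0.68. It reached 10 in 4 of 10 passage 2 cells and 16 of 16 passage 1 cells, and its mean at passage 2 rested on cell 14, at 1076, and cell 9, at 498. Without cell 14 the ratio was -0.42, so its sign depended on that cell. Smc4, a condensin subunit and the list gene with the highest mean, had 0, 339.8 and 2209.8 in passage 2 cells and 1.75, 604 and 1890.0 in passage 1 cells and a ratio of -0.16, or -0.74 without passage 2 cell 15 and 0.05 without passage 1 cell 1. Its highest passage 2 value was in cell 15, which had 15 cell cycle genes at 10. Ccnb2, a mitotic cyclin, reached 10 in 6 of 10 passage 2 cells and 10 of 16 passage 1 cells, with a ratio of 0.30, whereas Ccnb1 did so in 4 and 13, with a ratio of -3.29. The last pair is named after its values were seen.

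**Figure D3:**
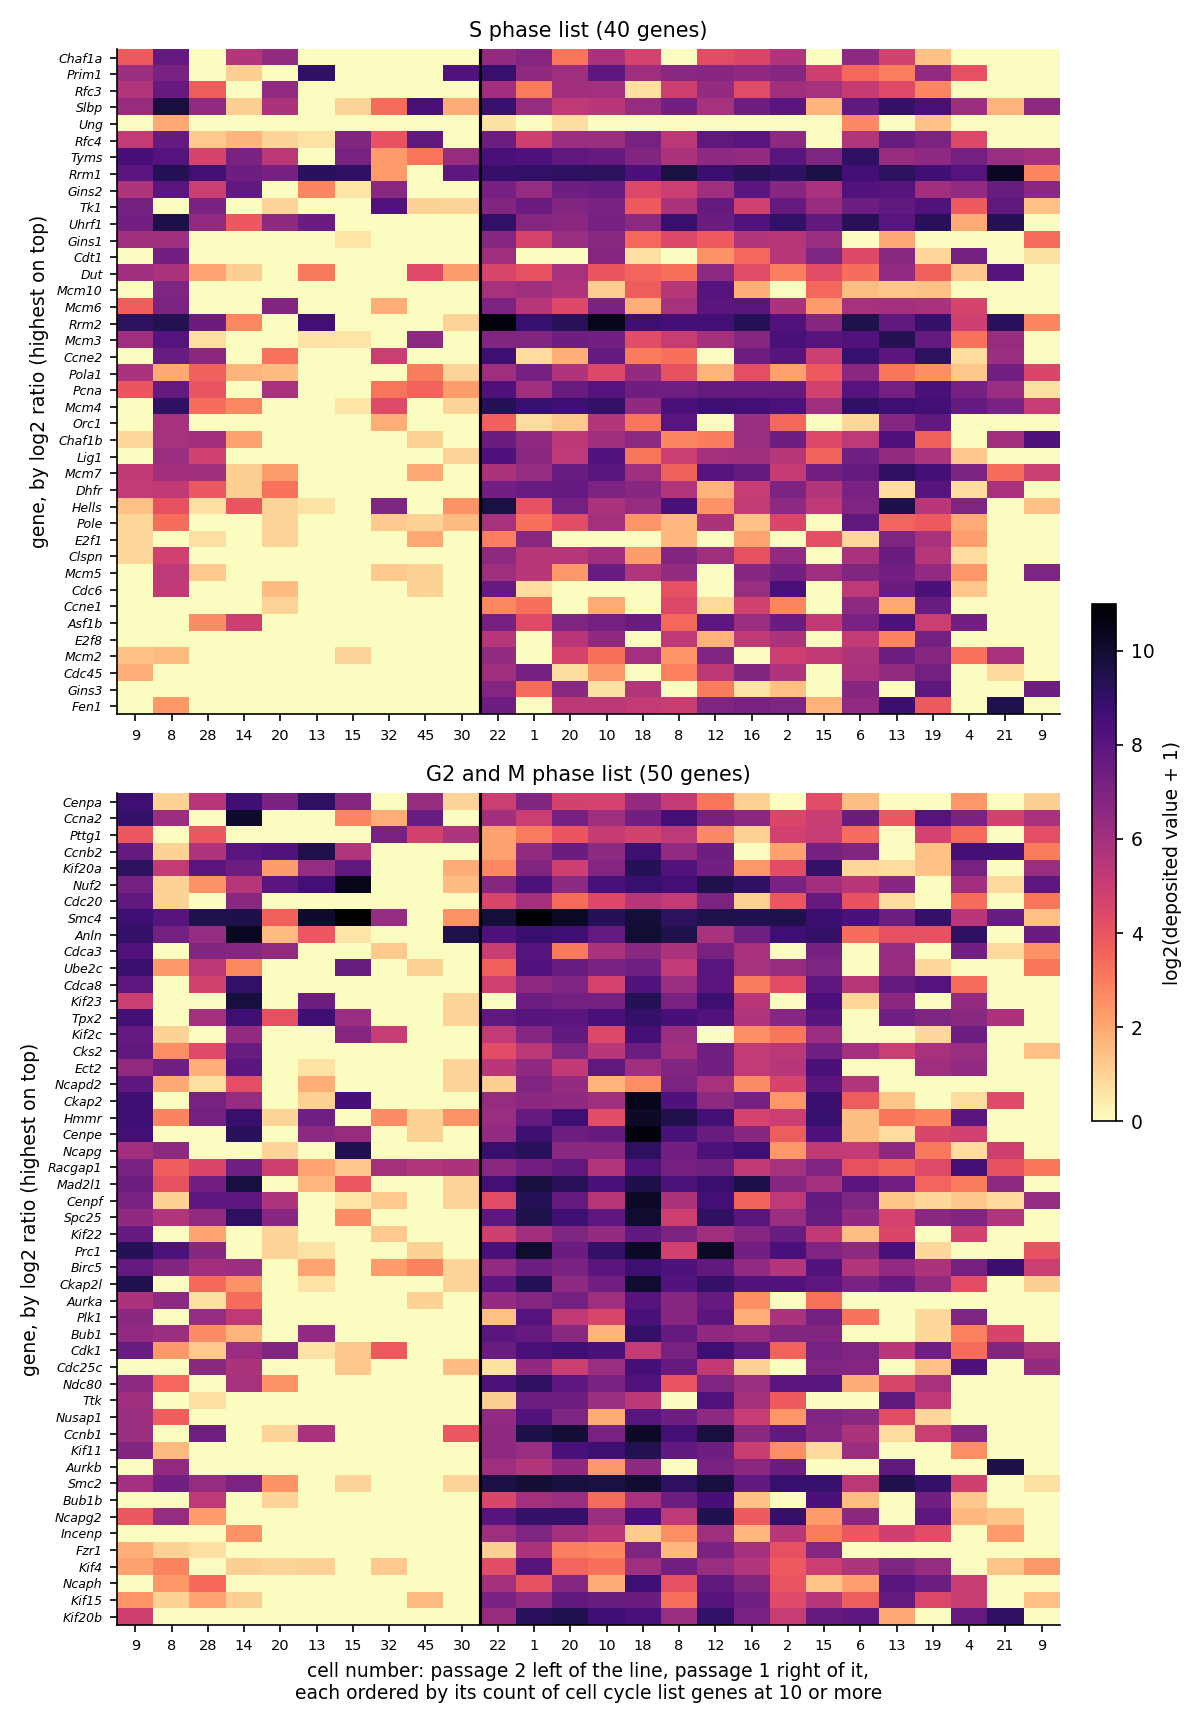
Values, as log2 of the deposited value plus 1, of the 40 S phase genes (top) and 50 G2 and M phase genes (bottom) in the 26 selected cells, passage 2 left of the line and passage 1 right of it; genes run from the highest ratio at the top to the lowest at the bottom. Passage 2 cells 9, 8, 28 and 14 carry most of the dark fields at passage 2, and Cenpa, at the top of the lower panel, is dark in 7 passage 2 cells.

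Promoter sequence is shown for the 2 genes that chose the cells, for the 2 ends of the G2 and M phase list and for Mcm7 as an S phase gene, to set the letters of the known elements beside the values. The windows run from 250 bases before to 50 after the transcription start in RefSeq, build GRCm38.p6, each written in the direction of transcription. Capitals mark the letters of the searched motifs, CCAAT (or ATTGG, its reverse complement) and TTTGAA (or TTCAAA), the core of the cell cycle homology region, and in Mcm7 also TTTCCCGC (or GCGGGAAA), letters known from E2F sites. The CArG box, the SRF site, was also searched, and its 1 match in these windows, in Kif20b from 204 bases before the start, is not in capitals. The windows are chr7:135716330-135716629 (minus strand) for Mki67, chr11:99024140-99024439 (minus strand) for Top2a, chr19:34922108-34922407 (plus strand) for Kif20b, chr5:30666636-30666935 (plus strand) for Cenpa and chr5:138171834-138172133 (minus strand) for the first of 2 starts of Mcm7.
Mki67: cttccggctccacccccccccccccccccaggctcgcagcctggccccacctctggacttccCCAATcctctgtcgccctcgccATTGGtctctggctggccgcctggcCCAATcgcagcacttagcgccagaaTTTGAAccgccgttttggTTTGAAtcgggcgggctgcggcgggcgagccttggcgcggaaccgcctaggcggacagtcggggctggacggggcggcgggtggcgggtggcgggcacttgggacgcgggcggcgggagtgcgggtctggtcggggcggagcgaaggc
Top2a: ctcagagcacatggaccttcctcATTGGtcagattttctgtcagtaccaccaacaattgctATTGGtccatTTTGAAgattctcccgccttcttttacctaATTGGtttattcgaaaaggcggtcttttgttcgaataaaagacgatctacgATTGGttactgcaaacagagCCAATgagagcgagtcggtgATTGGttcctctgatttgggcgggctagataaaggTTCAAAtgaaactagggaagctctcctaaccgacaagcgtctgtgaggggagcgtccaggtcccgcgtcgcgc
Kif20b: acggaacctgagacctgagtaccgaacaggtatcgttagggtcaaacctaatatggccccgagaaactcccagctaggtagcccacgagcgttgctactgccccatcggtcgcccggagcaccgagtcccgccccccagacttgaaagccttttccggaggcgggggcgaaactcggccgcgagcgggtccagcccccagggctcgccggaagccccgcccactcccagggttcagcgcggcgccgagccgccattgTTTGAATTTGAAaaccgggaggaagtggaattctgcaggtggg
Cenpa: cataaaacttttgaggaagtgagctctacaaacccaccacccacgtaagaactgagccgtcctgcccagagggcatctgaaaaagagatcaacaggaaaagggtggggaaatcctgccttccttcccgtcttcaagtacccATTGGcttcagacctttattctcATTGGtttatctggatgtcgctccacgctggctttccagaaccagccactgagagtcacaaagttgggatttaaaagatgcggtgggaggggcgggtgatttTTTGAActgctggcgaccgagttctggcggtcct
Mcm7: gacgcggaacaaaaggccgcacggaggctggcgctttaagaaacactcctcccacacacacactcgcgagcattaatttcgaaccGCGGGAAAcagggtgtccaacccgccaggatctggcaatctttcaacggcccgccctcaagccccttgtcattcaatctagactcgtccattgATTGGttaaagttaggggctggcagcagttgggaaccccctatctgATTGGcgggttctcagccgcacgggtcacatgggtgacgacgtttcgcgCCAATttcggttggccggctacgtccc

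Both ends of the list held TTTGAA. Kif20b had 2 adjoining copies and no CCAAT, and Cenpa had 1 copy and 2 CCAAT boxes, so both the gene with the lowest ratio and that with the highest held the letters. Both strands were searched, and no CCAAT or TTTGAA match overlapped another in these 5 windows. TTTGAA was present in 34 of 45 promoters of the G2 and M phase list (75.6%), 6 of 39 of the S phase list (15.4%) and 17.9% of all 32851 promoters. CCAAT was present in 33 of 45, 23 of 39 and 37.4% of the same sets. TTTCCCGC or TTTGGCGC was present in 8.89% of the G2 and M phase list, 25.6% of the S phase list and 1.57% of all promoters. The 45 windows belong to 43 of the 50 G2 and M phase genes and the 39 to 34 of the 40 S phase genes. A match describes letters only.

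Genes that act around division without being in the 2 lists were lower in part. Of 22 DNA repair genes, 7 (31.8%) were called lower and none higher, against 10.2% and 1.09% of all genes. Their median was -1.81, and -3.11 without passage 2 cell 8. Fignl1, which acts in homologous recombination, had 0, 0 and 3.98 in passage 2 cells and 0, 55.6 and 330.3 in passage 1 cells and a ratio of -5.97. No passage 2 cell reached 10 and 9 of 16 passage 1 cells did. Of 22 genes of the nuclear envelope and chromatin of dividing cells, 7 (31.8%) were called lower, against 10.2% of all genes. The median of these 22 was -0.62. Dnmt1, which copies DNA methylation after replication, had 0, 0 and 19 in passage 2 cells and 3.49, 61.1 and 321 in passage 1 cells, a ratio of -4.43 and the passage 2 cell higher in 3.12% of pairs. The highest passage 2 value, in cell 28, lay below the passage 1 median. The rule chose cells on genes of division, so the values of these 2 lists are also a description.

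The cyclins, kinases and inhibitors of G1 showed no shared direction. Of 15 genes, 7 had a ratio above 0 and 8 below, and the median was -0.08. Of these, 2 (13.3%) were called lower and none higher, near the 10.2% and 1.09% of all genes. Ccnd2, the D cyclin with the highest mean, had 115, 895 and 2764 in passage 2 cells and 20, 643 and 1744 in passage 1 cells and a ratio of 0.60, or 0.29 without passage 2 cell 20, and all 26 cells were at or above 10. Ccnd1 had 0, 32.6 and 1149 in passage 2 cells and 0, 17.4 and 488 in passage 1 cells and a ratio of 0.83, which was -0.47 without passage 2 cell 8. Cdkn1a, the p53 target p21 that holds cyclin-dependent kinases, had 0, 118 and 790.0 in passage 2 cells and 0, 19.5 and 196 in passage 1 cells and a ratio of 1.5, or 0.48 without passage 2 cell 14. The inhibitor gene Cdkn1b reached 10 in 7 of 10 passage 2 cells and 13 of 16 passage 1 cells, with a ratio of 0.35 that was -0.55 without passage 2 cell 32.

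Some contractile genes were higher in the selected passage 2 cells. Of 17 measured, 14 had a ratio above 0 and 3 below, and 4 (23.5%) were called higher, against 1.09% of all genes, with none called lower. The 4 were Acta2, Tagln, Cald1 and Tpm2, the last named after its values were seen. The list median was 1.05, 0.78 without passage 2 cell 14 and 1.89 without passage 1 cell 9, and it was 1.14 without the endothelial marker cells. In the cells with both genes under 10 it was 2.21 over 21 genes.

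Acta2, the smooth muscle actin, had lowest, median and highest values of 344, 2405 and 8358 in passage 2 cells and 5.67, 336 and 4826 in passage 1 cells. The ratio was 1.78, and the passage 2 cell was higher in 83.1% of pairs. The 2 highest passage 2 cells were cell 14, at 8358, and cell 32, at 6581, one with many and one with few cell cycle genes. Only passage 1 cells 9 and 18, at 4826 and 2959, lay above the passage 2 median, and passage 1 cell 22 was lowest. Tagln, an actin-bundling protein of smooth muscle, had 233, 859.9 and 3483 in passage 2 cells and 5.33, 179.7 and 1763 in passage 1 cells, with a ratio of 1.45. Every passage 2 cell was above the passage 1 median. Cald1, caldesmon, which holds actin and myosin apart, had 589, 1882 and 4034 in passage 2 cells and 189, 898 and 3084 in passage 1 cells, with a ratio of 1.05.

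Myh11 and Cnn1, later markers of the contractile state, were under 10 in most cells of both passages. Myh11, smooth muscle myosin heavy chain, had 0, 1.56 and 119 in passage 2 cells and 0, 0 and 197 in passage 1 cells and reached 10 in 4 of 10 passage 2 cells and 1 of 16 passage 1 cells. Its ratio was 0.88, but 0.07 without passage 2 cell 9 and 4.33 without passage 1 cell 9, the one passage 1 cell that reached 10. The passage 2 cells were cells 9, 13, 28 and 30, at 119, 90.6, 13.8 and 11.3. Cnn1, calponin, reached 10 in 2 of 10 passage 2 cells and 1 of 16 passage 1 cells. Itga8, an integrin subunit of smooth muscle, had 0, 11.1 and 589 in passage 2 cells and 0, 1.13 and 209 in passage 1 cells and a ratio of 2.76, with passage 2 cells 32 and 13 at 589 and 587. Without passage 1 cell 9, at 209, the ratio was 4.27.

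Myocd, which encodes myocardin, was read in 3 passage 2 cells, all of them with many cell cycle genes. Cells 14, 28 and 9 had 205, 185 and 87.1, the other 7 had none, and the highest of 16 passage 1 cells was 1.82. The ratio was 5.45 in the selected cells and -1.50 in the cells with both genes under 10, a difference in sign that was not tested.

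Genes of the actomyosin and focal adhesion list had a median ratio of 0.36. Of 29, 4 (13.8%) were called higher and none lower, against 1.09% and 10.2% of all genes. Myl12a, a regulatory light chain of nonmuscle myosin, overlapped least between the passages among the genes higher at passage 2 that the naming rule chose. It had 605, 1386 and 2338 in passage 2 cells and 264, 449.9 and 947 in passage 1 cells, a ratio of 1.42 (range 1.31 to 1.51 with each cell left out) and the passage 2 cell higher in 96.2% of pairs. All passage 2 cells lay above the passage 1 median, and 4 passage 1 cells, cells 9, 12, 18 and 21, lay above the lowest of them. Its near-copy Myl12b had 115, 575 and 955 in passage 2 cells and 48.3, 139 and 394 in passage 1 cells and a ratio of 1.58. Reads of the pair may be shared between them, since the handling of reads that map to several places is not given in the sources used here, and the same holds for the actins, tubulins and histones. The other called genes were Myh9, nonmuscle myosin heavy chain, with a ratio of 1.29 and the passage 2 cell higher in 97.5% of pairs, and the integrin subunit Itgb1, with 1.07, both named after their values were seen. Actb, which is actin beta, had a mean of 9616 ± 3579.8 in passage 2 cells (SD over 10 cells) and 6509.7 ± 2376 in passage 1 cells (SD over 16 cells) and was not called, with a ratio of 0.56.

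**Figure D4:**
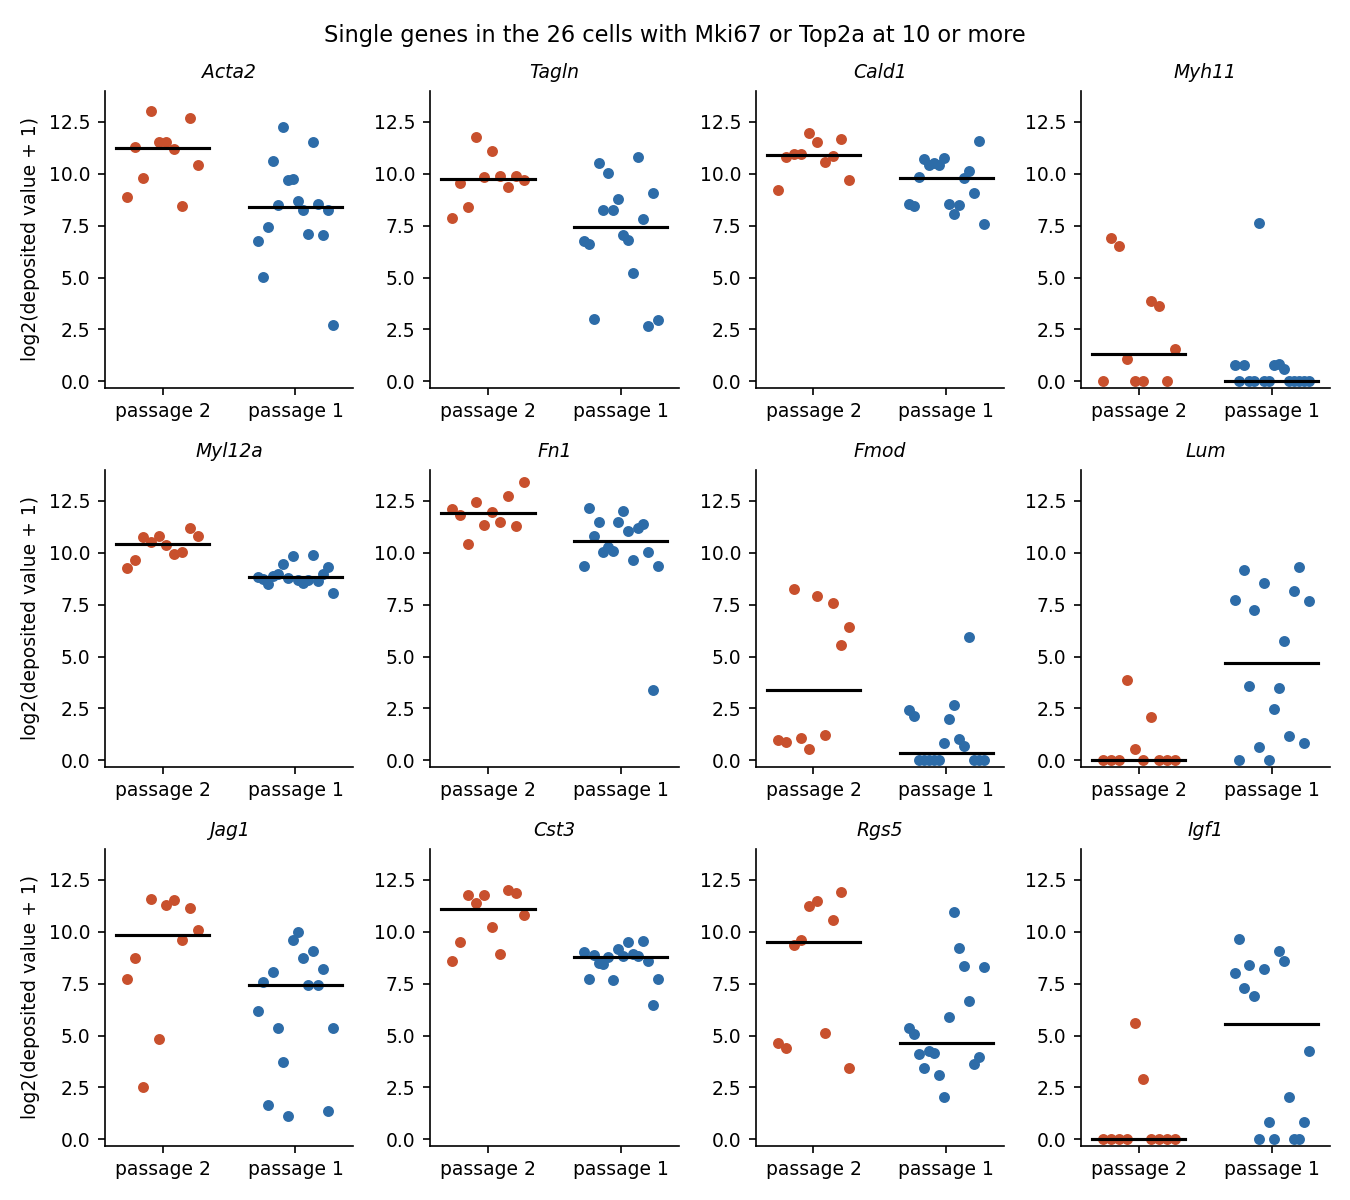
Values of 12 genes, as log2 of the deposited value plus 1, in the 26 selected cells, with passage 2 left (10 cells) and passage 1 right (16 cells) in each panel; points are cells and bars medians. The passages overlap least in Myl12a and Cst3, while in Fmod 5 passage 2 cells lie above 10 on the value scale and 5 under 2.

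Of 31 matrix genes, 23 had a ratio above 0, 5 (16.1%) were called higher, against 1.09% of all genes, and 2 (6.45%) lower, against 10.2% of all genes. The list had a median of 0.94 in the selected cells and 1.06 over 33 genes in the others. The genes called higher were Fn1, Fmod, Lox, Loxl1 and Fbln5. Fn1, fibronectin, had 1383, 3783 and 10686 in passage 2 cells and 9.37, 1528 and 4516 in passage 1 cells and a ratio of 1.25. Lox, which cross-links collagen and elastin, had means of 983 ± 925 at passage 2 and 134 ± 181 at passage 1 and a ratio of 2.86. Its relative Loxl1 and the elastic fibre gene Fbln5 had ratios of 1.91 and 2.00, and these 3 are named after their values were seen.

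Fmod, fibromodulin, a small proteoglycan that binds collagen, had 0.481, 23.8 and 305 in passage 2 cells and 0, 0.317 and 59.5 in passage 1 cells and a ratio of 3.91. The passage 2 values fell into a high and a low set. Cells 13, 20, 30, 45 and 32 had 305, 244, 189, 85.6 and 46.3, and none of them had more than 18 cell cycle genes at 10. The 4 cells with at least 25 such genes were all under 2, and against the 15 passage 1 cells with as many the ratio was -1.58. Only 1 passage 1 cell, cell 19, reached 10.

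The genes called lower were Lum and Vcan. Lum, lumican, another collagen-binding proteoglycan, had 0, 0 and 13.6 in passage 2 cells and 0, 32.1 and 625 in passage 1 cells and a ratio of -5.84, against 0.78 in the cells with both genes under 10. Passage 2 cell 14 alone reached 10, while 10 of 16 passage 1 cells did. Lum is also 1 of 10 fibroblast markers, of which 9 in passage 2 cells and 8 in passage 1 cells reached 10 in at least 1 cell. Their summed value had a lowest, median and highest of 281, 1839.6 and 4619 in passage 2 cells and 901, 2898 and 6098 in passage 1 cells, and its part in the result was not tested. Vcan, versican, a large proteoglycan of provisional matrix, had 0, 0 and 26.2 in passage 2 cells and 0, 16.3 and 287 in passage 1 cells, with a ratio of -4.33 in the selected cells and -4.43 in the others. Spp1, osteopontin, had 0, 2.07 and 312 in passage 2 cells and 0, 82.6 and 7336 in passage 1 cells and a ratio of -4.51, but the passage 2 cell was higher in 26.6% of pairs, so it was not called. Bgn, biglycan, was high in all 26 cells, at 567, 3908 and 6688 in passage 2 cells and 302, 2487 and 4151 in passage 1 cells, with a ratio of 0.65.

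Immediate early genes, which respond within minutes to serum, stretch or cell handling, had the highest list median, 1.77. It was 1.44 over 19 genes in the cells with both genes under 10. Of 16, 15 had a ratio above 0 and 3 (18.8%) were called higher, against 1.09% of all genes. The 3 were Atf3, Dusp1 and Gadd45b, the last 2 named after their values were seen. Atf3, a stress-induced transcription factor, had 0, 46.7 and 529.7 in passage 2 cells and 0, 0.766 and 108 in passage 1 cells and a ratio of 2.92. Btg2, an antiproliferative gene of this list, had 3.00, 838 and 4204 in passage 2 cells and 0.586, 106 and 836 in passage 1 cells and a ratio of 2.69, with the passage 2 cell higher in 73.1% of pairs, under the 75% needed. It was at 3.00, 4.80 and 8.66 in passage 2 cells 8, 13 and 15 and above 200 in the other 7. Egr1, an early growth response factor, had 6.93, 1539 and 6380.1 in passage 2 cells and 6.25, 774 and 2862 in passage 1 cells and a ratio of 0.81, which was 0.36 without passage 2 cell 14. By the labels, passage 2 cells had been detached and replated once more, and the part of handling in these values was not tested.

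Among secreted and receptor genes, several of the genes with the greatest size of ratio rested on a few cells. Cxcl12, the chemokine known as stromal cell-derived factor, had 66.1, 1789 and 2914 in passage 2 cells and 18.6, 657 and 1547 in passage 1 cells and a ratio of 1.25, and was called higher, against a ratio of -0.14 in the cells with both genes under 10. Csf1, the growth factor of macrophages, had 7.87, 80.3 and 846 in passage 2 cells and 2.32, 450.1 and 1210.0 in passage 1 cells and a ratio of -1.34, or -2.13 without passage 2 cell 30, and was called lower. Il6, interleukin 6, had a ratio of 5.01 that was 0.84 without passage 2 cell 32, which held 1016, and the passage 2 cell was higher in 54.4% of pairs. Serpina3n, a serine protease inhibitor, was at 1148, 829, 664 and 445 in passage 2 cells 32, 13, 30 and 45 and at no more than 1.31 in the other 6, against a highest passage 1 value of 17.4. These are 4 of the 5 passage 2 cells with Fmod above 10.

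Igf1, insulin-like growth factor 1, had 0, 0 and 47.6 in passage 2 cells and 0, 67.5 and 812 in passage 1 cells and a ratio of -4.83, and was called lower. Passage 2 cell 15 alone reached 10, while 9 of 16 passage 1 cells did. In the cells with both genes under 10 the ratio was 3.18, of the opposite sign, a difference that was not tested. Its binding protein gene Igfbp7 had 3.00, 118 and 370.0 in passage 2 cells and 0, 29 and 105 in passage 1 cells, with a ratio of 2.13, and was called higher. Igfbp4 had a ratio of 1.99 and was not called, with the passage 2 cell higher in 52.5% of pairs. Its ratio was 1.16 without passage 2 cell 32 and 3.50 without passage 1 cell 13.

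Of the Notch pathway, the ligand gene Jag1 was called higher. It had 4.80, 929 and 3073 in passage 2 cells and 1.17, 171 and 1018 in passage 1 cells and a ratio of 2.40, against 2.62 in the cells with both genes under 10 and 3.19 without the endothelial marker cells. Passage 2 cells 13 and 15, which had the fewest genes with a read among the selected passage 2 cells, were low, at 4.80 and 27.4. Heyl, a target of Notch, had 0, 0 and 1010.3 in passage 2 cells and 0, 0 and 26 in passage 1 cells, and was at 1010.3, 841 and 413 in passage 2 cells 20, 30 and 14. The list median was 0.65 over 7 genes in the selected cells and 2.59 over 10 genes in the others.

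Rgs5, which shortens signals of G protein-coupled receptors and marks pericytes and arterial smooth muscle, had 9.96, 719 and 3828 in passage 2 cells and 3.10, 25.4 and 1941 in passage 1 cells and a ratio of 2.47, against 5.94 in the cells with both genes under 10. Passage 2 cells 9, 8, 28 and 45 were at 19.8, 24.0, 34.1 and 9.96, and the other 6 were above 600. Over the cells with at least 25 cell cycle genes at 10 the ratio was -0.10. Cst3, cystatin C, an inhibitor of cathepsins, had 384, 2190.5 and 4101 in passage 2 cells and 87.5, 444 and 754 in passage 1 cells, a ratio of 2.40 and the passage 2 cell higher in 90% of pairs. Its ratio was 1.34 over the cells with at least 25 cell cycle genes, so it kept its direction there.

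Outside the lists, the genes named are among the 10 highest and 10 lowest ratios of genes that were called, had a read in at least 50% of cells at the passage where they were higher, and kept their direction whichever cell was left out. Myom1, myomesin, a protein of the sarcomere M band, was highest, with 0, 24.3 and 280.0 in passage 2 cells and 0, 0 and 1.07 in passage 1 cells and a ratio of 6.09. Passage 2 cells 15, 9, 14 and 45 were at 280.0, 241, 171 and 105. Of 8 other striated muscle markers, 1 reached 10 in at least 1 cell at each passage, with highest summed values of 21.7 at passage 2 and 60.4 at passage 1. Myh6, Myl2, Actc1 and Ckm of these were at 0 in all 26 cells. Itga11, a collagen-binding integrin subunit, followed with a ratio of 5.95, from passage 2 cells 20, 32, 14 and 15, at 516, 480.1, 177 and 26. Cpq, a carboxypeptidase, was read in all 10 passage 2 cells, with 24.9, 149.97 and 670.2 in passage 2 cells and 0, 5.61 and 124 in passage 1 cells, a ratio of 3.37 and the passage 2 cell higher in 95% of pairs. Cemip, which takes part in the breakdown of hyaluronan, had 0, 8.54 and 163 in passage 2 cells and 0, 0 and 1.60 in passage 1 cells and a ratio of 4.39. Rarres1, a gene induced by retinoic acid, had 0, 35.5 and 331 in passage 2 cells and 0, 0 and 4.66 in passage 1 cells and a ratio of 5.24. Dcxr, a carbonyl reductase, had 0, 33.4 and 430.1 in passage 2 cells and 0, 0 and 50.7 in passage 1 cells and a ratio of 3.79. Tesk1, a kinase that acts on cofilin, had a ratio of 3.62, and 1500015O10Rik one of 4.32, which was -0.22 over the cells with both Mki67 and Top2a at 10. Bcam, a laminin-binding cell adhesion molecule, was at 0 in all passage 1 cells and had a median of 2.74 and a highest value of 117 at passage 2, so its mean was at least 212-fold higher, taking 3 reads over the passage 1 cells as the floor.

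At the low end stood Zfp808, Fen1, Flrt2, Kif20b, Esr1, Fignl1, Chac2, Plk4, Lum and Prkaa1. Zfp808, of the large zinc finger family, had 0, 0 and 0.940 in passage 2 cells and 0, 28.2 and 874 in passage 1 cells and a ratio of -6.76. Its relatives may share reads with it. Esr1, estrogen receptor alpha, had 0, 0 and 8.96 in passage 2 cells and 0, 91.8 and 430.4 in passage 1 cells and a ratio of -6.05, against 0.03 in the cells with both genes under 10. Flrt2, a cell adhesion and guidance molecule, had 0, 0 and 5.67 in passage 2 cells and 0, 75 and 533 in passage 1 cells and a ratio of -6.43. Chac2, an enzyme of glutathione breakdown, was at 0 in all passage 2 cells and reached 10 in 9 of 16 passage 1 cells, so its mean was at least 215-fold lower, taking 3 reads over the passage 2 cells as the floor. Prkaa1, a catalytic subunit of the energy sensor AMPK, had 0, 0 and 1.32 in passage 2 cells and 0, 32.5 and 314 in passage 1 cells and a ratio of -5.78. Fen1, Kif20b, Fignl1 and Plk4 of this set act in replication, division or repair.

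In the lists of metabolism, translation and folding, at most 2 genes each were called lower and none higher. Over all genes 10.2% were called lower and 1.09% higher. The greatest share called lower in these lists was 14.3%, in glycolysis, so the counts are given as a description. The medians, beside -0.29 over all genes, were -0.34 for glycolysis, -0.09 for nuclear oxidative phosphorylation genes, -0.30 for mitochondrially encoded genes, 0.15 for cytosolic ribosomal proteins, 0.28 for protein folding and secretion and 0.05 for housekeeping genes, and each of these medians changed sign under at least 1 of 18 other settings. Cholesterol and fatty acid synthesis stood at -0.63. Hk2, a hexokinase, had 0.533, 437 and 1349 in passage 2 cells and 0, 92.9 and 663 in passage 1 cells and a ratio of 1.67, and Pkm, pyruvate kinase, had 20.9, 380.1 and 939 in passage 2 cells and 147, 432 and 1745 in passage 1 cells and a ratio of -0.67, and neither was called. The remaining lists had medians of 0.17 for p53, arrest and senescence, 0.36 for SRF and YAP targets, 0.40 for proteases and inhibitors, 0.78 for the interferon response, -0.08 for growth factors and receptors, -0.51 for RGS and G protein signalling and 1.41 for the inflammatory list.

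**Figure D5:**
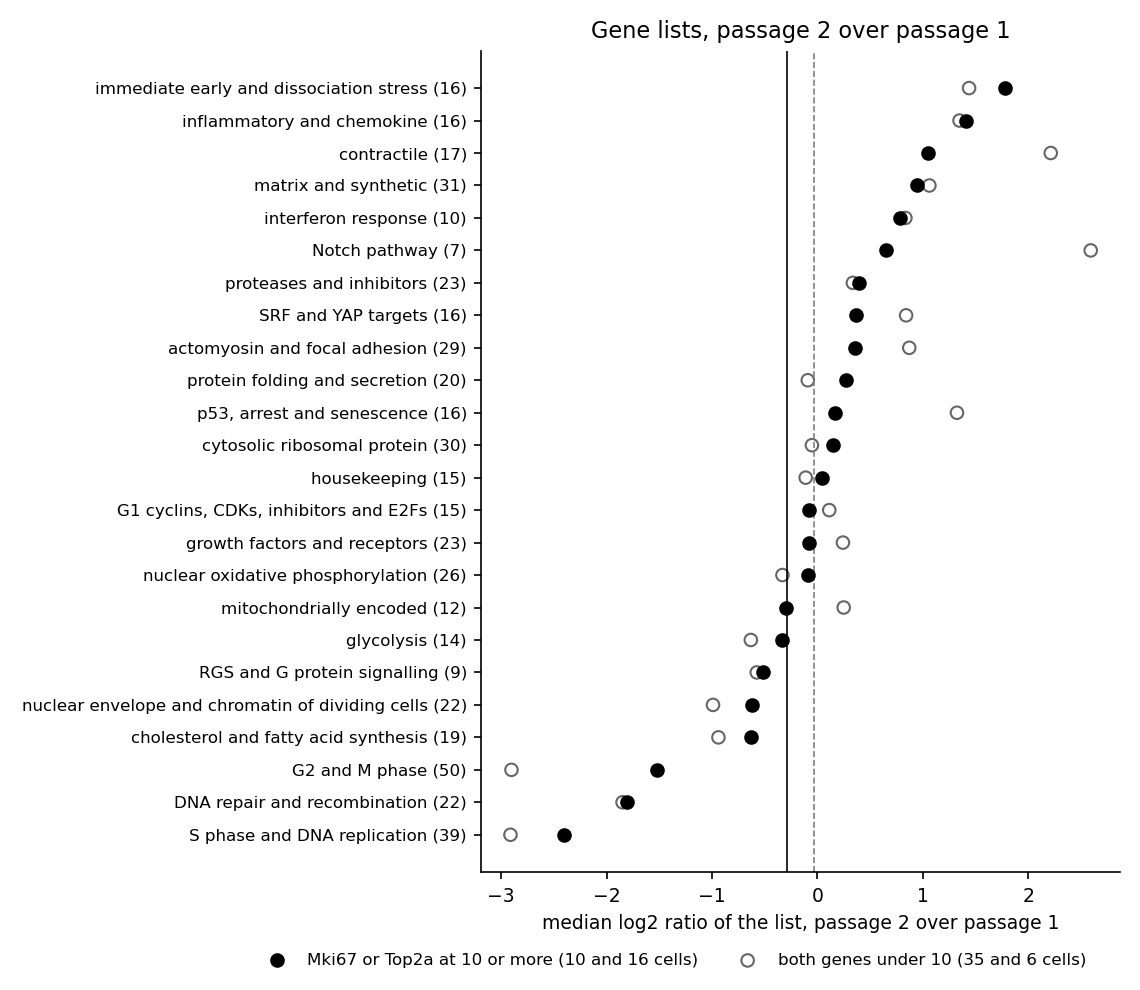
Median log2 ratio, passage 2 over passage 1, of the 24 gene lists, with the number of genes measured in the selected cells in brackets. Filled circles are the selected cells and open circles the cells with both genes under 10. The solid and dashed lines are the medians of all genes, -0.29 and -0.03. The circles of a list can rest on different genes, which entered each comparison separately. Notch has 7 and 10 genes, contractile 17 and 21 and p53 16 and 13. The S phase, G2 and M phase and DNA repair lists lie lowest in both, and the Notch (0.65 and 2.59), contractile (1.05 and 2.21) and p53 (0.17 and 1.32) lists lie furthest right of the selected cells in the others.

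The same comparison in the 35 passage 2 and 6 passage 1 cells with both genes under 10 gave 323 genes called higher (3.83%) and 579 lower (6.87%) of 8424. Of the 86 genes called higher in the selected cells and measured in both comparisons, 42 were called higher in the others too, which is 48.8% of those 86 and 14.3% of the 293 called higher in the others. Of 769 called lower, 125 were called lower in the others, 16.3% of those 769 and 22.9% of 547. The comparisons share no cell but share the library sets. Of the cells with both genes under 10, 2 of the 6 at passage 1 and 1 of the 35 at passage 2 held at least 3 endothelial markers at 10. The part of these cells in the ratios was not tested.

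Among the cells that also had at least 25 cell cycle list genes at 10, 4 at passage 2 and 15 at passage 1, a choice made after the data were seen, the contractile median was 1.88, the matrix median 0.43 and the immediate early median 1.61. The S phase median was -1.30 there, against -2.40 in all selected cells, and the DNA repair median -0.67, against -1.81. For chromatin of dividing cells it was 0.18, against -0.62. Without endothelial marker cells the G2 and M phase median was -0.33, against -1.52 in all selected cells. The S phase and the G2 and M phase lists chose these cells, so their medians are a description. Acta2 and Tagln had ratios of 2.58 and 1.88, Cald1 and Myl12a of 0.60 and 0.93, and Fn1 and Jag1 of 1.11 and 2.63. Serpina3n and Il6 had ratios of -1.15 and -1.58 there, below 0, as had Fmod. Il6 and Fmod were at most 0.66 and 1.31 in the 4 passage 2 cells. Their highest passage 1 values were 22.7, in cell 6, and 59.5, in cell 19, so these 2 negative ratios rest on few passage 1 cells. With 4 cells at passage 2 the other ratios of this comparison also rest on single cells. The part of cell cycle state in the passage differences was not tested.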

How the data were processed

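The series holds 1 table of values for 67 single cells, 45 at passage 2 and 22 at passage 1, prepared with Nextera XT per the labels' protocols. BWA, SAMtools, HTSeq, DESeq and the build GRCm38 are named, without versions, in the submitters' processing notes. The deposited values are a normalised signal, which the authors made by dividing gene counts by 1 DESeq size factor per cell, as those notes and the steps of its columns show. Each column's step gave whole reads for 100% of 509576 values within 0.001, so depth could be recovered. The table has 39179 gene rows, of which 37607 matched a symbol in GENCODE M21. How reads that map to several places, strand and overlapping genes were counted is not given in the sources used here.

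A gene entered when, among the selected cells of either passage, its mean reached 10 and at least 25% of cells had a read. These genes hold 97.9% of reads. The same filter was applied separately to the cells with both genes under 10. Values were compared as log2 of the mean plus a pseudocount of 1, and a call needed a 2-fold difference and 75% of pairs. No count model was fitted to those reads, since each passage is 1 sample and cells are not its replicates. Shares have exact Clopper-Pearson 95% intervals, which, like the floor of 3 reads, cover counting error only. No doublet caller was run on 67 captured cells, so a captured pair could not be told from a single cell.

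Cells, lists and named genes were chosen with earlier results of these data known. Genes named are the 10 highest and 10 lowest ratios under the rule given above, for each list the gene with the highest mean and those with the highest and lowest ratio, a list of genes taken from earlier results, and the 10 genes with the highest mean in each passage. Of 121 such genes, 87 had a promoter entry in the RefSeq table. Alternatives covered the pseudocount, filters, scaling, averaging, thinning, other cell choices and each cell left out. Python 3.11.15 with numpy 2.4.6, pandas 2.3.3, scipy 1.17.1 and matplotlib 3.10.9 was used, and R 4.3.3 with edgeR 4.0.16 for TMM factors only.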

Additional observations from a re-analysis of the deposited data

Results flagged for a closer look

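Passage 2 cell 8 stood apart from the other 9 selected passage 2 cells in the mean log2(value + 1) over the S phase and DNA replication list. Its mean was 5.325, and the next highest cell was at 3.16. The gap was 0.468 of the range of the 10 cells, just above Dixon's 95% critical value of 0.466 for 10 values. This was 1 of 29 measures examined, and chance alone passes that limit in about 1 of 20. The same cell held 8 of 10 endothelial markers at 10. Without it the S phase list median was -3.63, against -2.40 with all 26 cells.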

How the results depend on the processing

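Across 18 other settings and 26 removals of 1 cell, 418 of 432 list medians under other settings and 623 of 624 under single removals moved by less than the spread between cells. The count of genes called higher ranged from 85 to 138 and that of genes called lower from 763 to 1079 with each cell left out. TMM scaling gave 125 higher and 779 lower, against 93 and 871. A filter on a mean of at least 50 and a read in at least 50% of cells gave 505 lower, by its own construction, since fewer genes were tested. Requiring both Mki67 and Top2a at 10 left 3 passage 2 and 12 passage 1 cells. It gave 574 higher and 1789 lower of 8795 genes, and medians of 1.55 for p53 and -2.40 for cholesterol. Ratios there were -0.22 for 1500015O10Rik, -1.82 for Fmod and 0.90 for Bcam (4.87 in all selected cells). Taking any read of either gene gave 144 higher, 384 lower and a mitochondrial median of 0.13, and took Esr1 to -0.96, Lum to -1.27, Chac2 to -1.53 and Zfp808 to -2.36. Passage 1 cells matched on reads gave 144 higher and an inflammatory median of 2.77. Medians over cells gave -4.41 for S phase, -4.82 for G2 and M phase and 0.10 for the inflammatory list, and means of log2 values gave -1.96 for chromatin and -0.80 for housekeeping genes. Without endothelial marker cells the DNA repair median was -3.34, and single removals took it between -3.11 and -1.66. Over cells with at least 25 cell cycle genes, chosen after the data were seen, 454 genes were called higher, the p53 median was 1.37, and Fmod and Rgs5 stood at -1.58 and -0.10. The same without endothelial marker cells gave 718 higher, 1358 lower, -1.76 for Fmod and medians of 0.11, -0.59 and -0.55 for the inflammatory, interferon and protease lists. The causes were not tested. No paired analysis was possible because a cell's number only names it and each passage is 1 sample. Depth limits low genes, since 1 read was worth a value of 0.481 to 1.32 in passage 2 cells and 0.533 to 0.910 in passage 1 cells.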
